A study of Mus musculus with 54 samples.

Results

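Interferon-stimulated genes were read in 54 amplification pools of single mouse bone marrow progenitors. The set holds 9 genes, Rtp4, Xaf1, Ifi27l2a, Ifi203, Isg15, Irf7, Ifit1, Ifit3 and Bst2, found by name among the 27297 gene rows of the deposited UMI table, each as a row of its own. A UMI (unique molecular identifier) marks 1 captured mRNA molecule. Bst2 supplied 49.6% of the UMIs of the set, Irf7 13.4% and Rtp4 8.23%, while Ifit1 had 64 UMIs and Ifit3 had 8 in the whole series.

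Type I interferon binds the receptor Ifnar1 and Ifnar2 and activates a complex with Irf9 that binds a DNA element found before many antiviral genes. Poly(I:C) is a synthetic double-stranded RNA that cells sense as viral and answer with interferon. It is also the agent used to switch on the Cre recombinase of Mx1-Cre mice, whose promoter is itself interferon-inducible. Progenitors of the bone marrow respond to interferon, and some members of the set, such as Bst2 and Irf7, are also known for high levels in plasmacytoid dendritic cells without treatment.

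All cells were sorted as Lin- cKit+ Sca1- progenitors and profiled with MARS-seq, a plate method in which wells are barcoded and the wells of part of a plate are amplified as 1 pool. Groups follow the description in the authors' well table, with genotype and treatment as the labels give them for that group. Cebpa KO (Cebpa(flox/flox)Mx1-Cre) and Cebpa control pools came from sequencing batches SB29 (8 and 4 pools) and SB23 (4 and 2 pools). Cebpa encodes a transcription factor needed to enter the granulocyte and monocyte path, and Cebpe one needed later in granulocytes. Cebpe KO (Cebpe-/-, 4 pools) and Cebpe control (Cebpe+/+, 2 pools) came from SB23, and the labels of these genotypes give no treatment. The other groups, whose own labels give none either, were the Irf8-GFP+ MHCII+ gate of Irf8-GFP reporter mice (6 pools), and from wild-type mice the Flt3+ Csf1r+ gate (6 pools), the CD41+ gate (2 pools), all 3 inside the CD34+ FcgR(low) fraction, and unsorted progenitors (16 pools). All mice were C57BL/6. Every Cebpa pool of SB29 is labelled as treated with poly(I:C), without a dose, and as 6 to 8 weeks old, like the gates and unsorted progenitors. For Cebpa mice of SB23 the label reads 300 µg, given 3 times, 3 weeks before harvest. The labels of the Cebpa and Cebpe mice of SB23 give an age of 14 weeks and another site. Cebpa controls carry the floxed allele without Cre (Cebpa(flox/flox)), except that control pools 1 and 2 of SB29 have an Mx1-Cre strain label, on a plate of their own. Mx1-Cre is active in any cell that responds to interferon, so the deletion is not confined to progenitors.

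In 36 pools the GEO label and the well table give the same group, and in 18 pools, on 9 plates, they differ. These 18 include every Cebpa and Cebpe pool of SB23, 4 Flt3+ Csf1r+ pools and 2 Irf8-GFP+ MHCII+ pools. Taken pool by pool, the labels put the dosed injection on 2 pools that the table calls Cebpe KO, 2 that it calls Cebpe control and 2 that it calls the Flt3+ Csf1r+ gate, and on none that it calls Cebpa. Which SB23 pools received poly(I:C) thus depends on the source followed. On 8 of the 9 plates the label equals the table's entry for the next plate. The label of 14 weeks falls on 2 of the 4 Cebpa KO pools of SB23 and on 2 Flt3+ Csf1r+ pools. It also falls on all Cebpa control, Cebpe KO and Cebpe control pools of SB23, so age depends on the source too. The table's grouping was the one that matched the targeted genes. Cebpa had 0 to 1 UMI per Cebpa KO pool of SB29 against 35 to 64 per control pool, and 0 to 2 per KO pool of SB23 against 44 in each control pool. Cebpe had 0 UMIs in every Cebpe KO pool against 21 to 40 per Cebpe control pool. Whether the 3' tag lies inside the deleted stretch is not given, so the 0 counts check the grouping only as far as that. The well table gives 1 mouse identifier per description. The Cebpa KO pools of SB29 and SB23 share theirs, and so do the Cebpa control pools of both batches. All p-values therefore measure spread between pools of 1 identifier, which may be technical. Cells with at least 500 UMIs were kept (8399 of 10260), and pools held 140748 to 854479 UMIs. All 192 cell barcodes are shared between pools, which is how the wells were designed.

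Promoters were read for the members present in the reference table, since the element that the Irf9 complex binds has a simple core. Of the 9 members, 7 had an entry (RefSeq, build GRCm38.p6, 250 bases before to 50 after the start), and Rtp4 and Ifi27l2a are only named. The core was searched as GAAA, any 2 bases and GAAA again, on either strand, and 5 of the 7 members held it (Isg15, Bst2, Ifit1, Ifit3 and 1 of the 2 entries of Ifi203), against 1131 of all 32851 entries (3.44%). Isg15 held 3 overlapping matches that ended 56 bases before the start, and Bst2 a run that ended 114 bases before it. Irf7 and Xaf1 held none in this window. A match is a description of the letters, not a binding site. Of the sequences, 2 with the core and 2 without it are shown, of genes that each passed the test in at least 1 comparison between groups. They read 5′ to 3′ on the strand of the gene, and capitals mark matches to the core.
Isg15 (chr4:156200769-156201068, minus strand): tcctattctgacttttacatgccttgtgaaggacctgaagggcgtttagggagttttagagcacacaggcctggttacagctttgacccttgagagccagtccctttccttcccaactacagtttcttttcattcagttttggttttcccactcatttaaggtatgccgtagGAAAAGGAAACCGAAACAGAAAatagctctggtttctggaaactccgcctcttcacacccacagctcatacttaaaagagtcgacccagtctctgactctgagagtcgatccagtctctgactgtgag
Bst2 (chr8:71537423-71537722, minus strand): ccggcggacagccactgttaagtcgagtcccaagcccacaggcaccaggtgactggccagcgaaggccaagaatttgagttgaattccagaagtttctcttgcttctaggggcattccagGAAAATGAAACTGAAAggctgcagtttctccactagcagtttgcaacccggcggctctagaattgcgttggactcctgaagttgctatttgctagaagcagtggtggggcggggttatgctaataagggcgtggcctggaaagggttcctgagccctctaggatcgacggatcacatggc
Irf7 (chr7:141266375-141266674, minus strand): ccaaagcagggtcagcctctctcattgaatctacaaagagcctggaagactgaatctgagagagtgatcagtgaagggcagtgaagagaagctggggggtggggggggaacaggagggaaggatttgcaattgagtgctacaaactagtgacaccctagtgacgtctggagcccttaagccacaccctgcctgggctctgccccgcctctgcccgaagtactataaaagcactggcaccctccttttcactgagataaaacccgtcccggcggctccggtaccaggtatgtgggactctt
Xaf1 (chr11:72301379-72301678, plus strand): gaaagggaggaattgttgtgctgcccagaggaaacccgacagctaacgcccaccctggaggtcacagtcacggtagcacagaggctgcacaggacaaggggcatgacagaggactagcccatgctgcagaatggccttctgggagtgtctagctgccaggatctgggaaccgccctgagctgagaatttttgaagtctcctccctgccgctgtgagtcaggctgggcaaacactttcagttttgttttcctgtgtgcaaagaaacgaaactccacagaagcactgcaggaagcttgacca

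Levels are given as CPM, a gene's UMIs scaled to the total UMIs of its pool or group. Across groups, Rtp4 was highest in the Cebpa KO of both batches (90.2 CPM over all cells of SB29 and 71.9 of SB23), then in Cebpe control (52.5), unsorted progenitors (34.5), the CD41+ gate (20.5), Cebpa control of SB23 (14.0), the Flt3+ Csf1r+ gate (13.9), Cebpe KO (12.1), Cebpa control of SB29 (11.4) and the Irf8-GFP+ MHCII+ gate (6.16). Pools of the 2 Cebpa KO groups overlapped, and so did each neighbouring pair from unsorted progenitors downwards. Summed over all 9 genes the order was another one, led by the Flt3+ Csf1r+ gate (495 to 692 CPM per pool, median 587). The lowest sums were those of Cebpa control in SB23 (177 and 174 CPM) and of Cebpe KO (159, 247, 172 and 178 CPM).

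**Figure D1:**
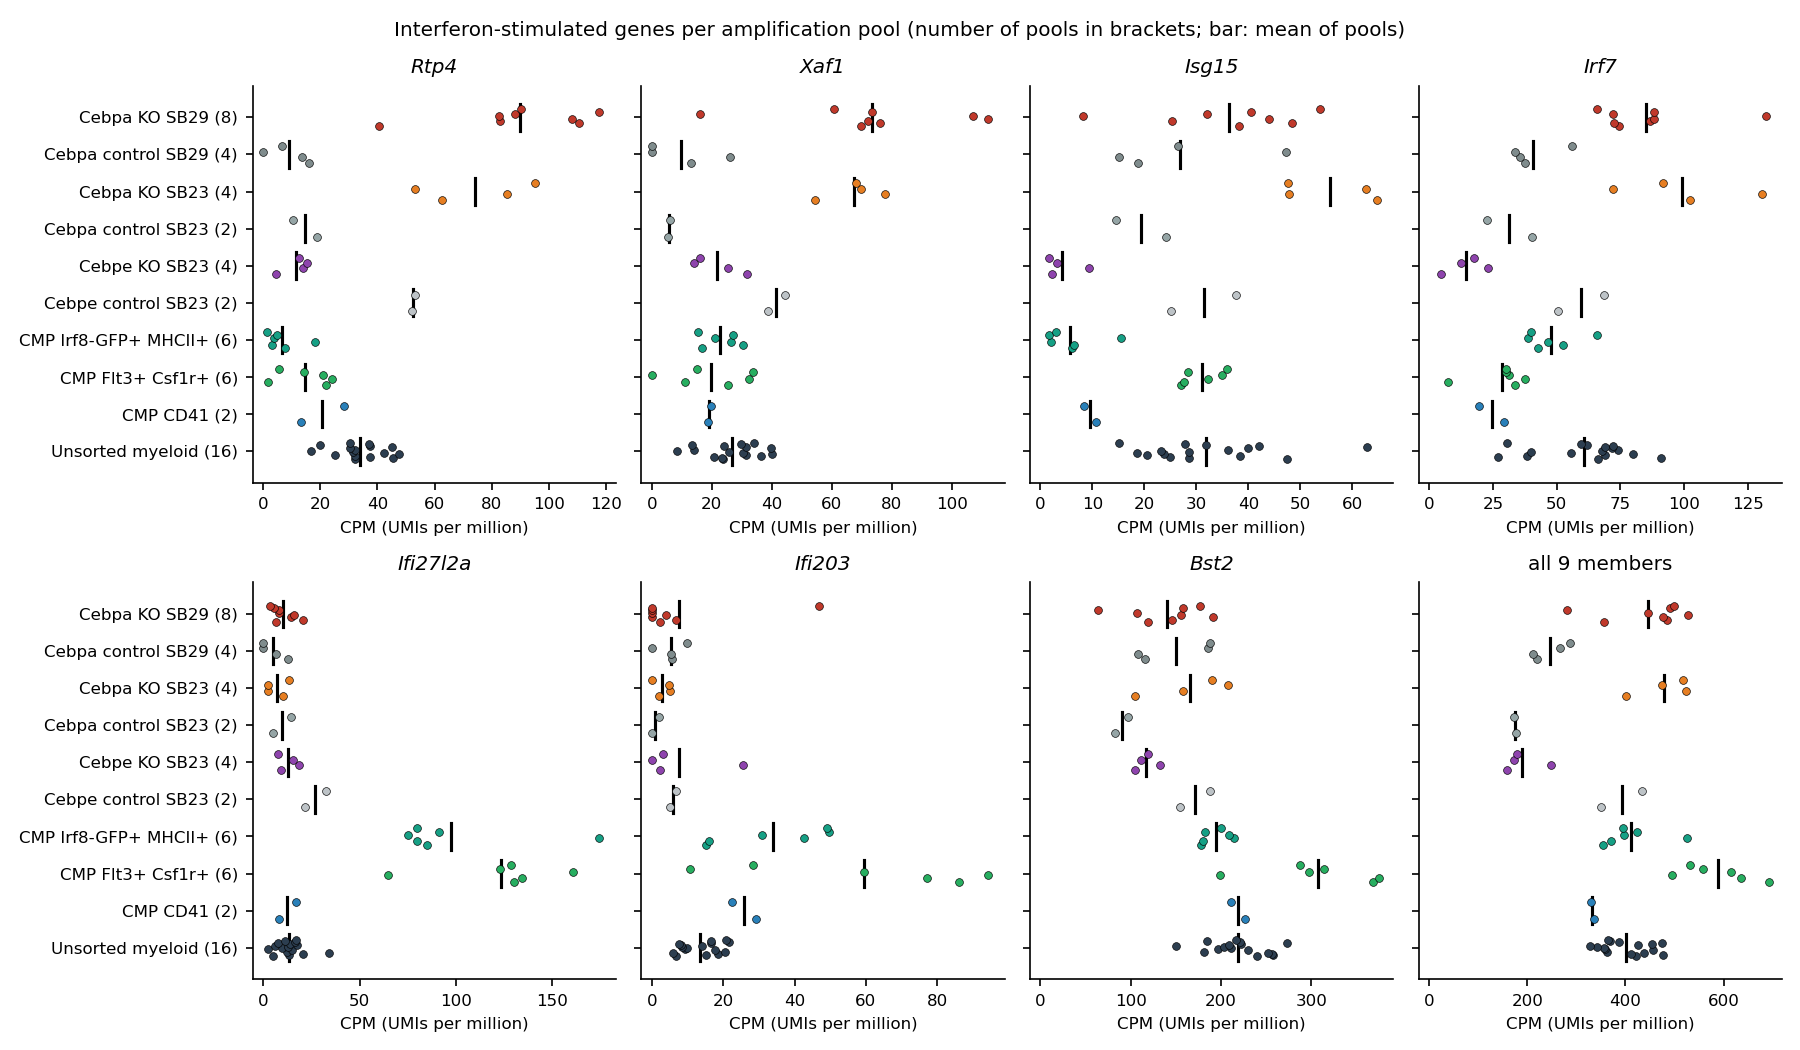
Level of each member (CPM, linear axis) in every pool, by group; each point is 1 pool and each bar the mean of its group. The Cebpa KO pools of SB29 lie between 40.5 and 118 CPM for Rtp4, above the SB29 control pools at 0 to 15.9 CPM, while Ifi27l2a stands out in the Irf8-GFP+ MHCII+ and Flt3+ Csf1r+ gates.

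The first comparison asked how Cebpa KO and Cebpa control progenitors differed within SB29, where both groups carry the poly(I:C) label. Rtp4, Xaf1 and Irf7 rose in the KO, while Isg15 and Bst2 did not pass the test. These 3 of the 5 members that could be tested compare with 8.72% of all 5312 genes called in either direction, and 3.14% called higher. The median log2 change was 0.97 over the 5 members tested, against 0.02 over all genes. All 4 others, Ifi27l2a, Ifi203, Ifit1 and Ifit3, were too low to enter. The filter on low counts keeps a gene that is high enough in the pools of either group alone. Rtp4 and Xaf1 entered through their KO pools only, so the share of tested members called is partly set by the filter. The members were also chosen with earlier results of these data known, so the share is no independent test, here or in later comparisons.

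Rtp4, an interferon-induced receptor transporter protein, had 40.5, 89.2 and 118 CPM in the KO pools (lowest, median and highest of 8) against 15.9, 13.7, 0 and 6.6 CPM in the 4 control pools. Every KO pool lay above every control pool. The mean was 90.1 ± 24.1 CPM in KO and 9.06 ± 7.23 CPM in control (SD, n = 8 and 4), and the log2 change was 2.96 ± 0.38 (SE, adjusted p = 3.26e-05, edgeR quasi-likelihood). Xaf1, which binds the apoptosis inhibitor XIAP, had 16.1, 72.8 and 112 CPM in KO against 13, 26.1, 0 and 0 CPM in control. Its ranges overlapped through KO pool 6 alone, at 16.1 CPM. The change of Xaf1 was 2.44 ± 0.47 on the log2 scale (adjusted p = 0.00231).

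Irf7, the transcription factor that amplifies interferon production, had 65.8, 80.4 and 132 CPM in KO against 37.6, 35.7, 33.8 and 56.1 CPM in control. The groups did not overlap, and the log2 change was 0.97 ± 0.24 (adjusted p = 0.0164). Isg15, a ubiquitin-like protein that is coupled to other proteins, had 8.25, 39.4 and 53.7 CPM in KO against 18.8, 15.1, 47.3 and 26.4 CPM in control. These ranges overlapped (0.59 ± 0.37, adjusted p = 0.300). Bst2, the membrane protein tetherin that holds budding virions back, had 64.2, 151 and 191 CPM in KO against 116, 108, 186 and 188 CPM in control, also overlapping (-0.10 ± 0.23, adjusted p = 0.809). Ifit1, which binds foreign RNA, had 9 UMIs over the KO pools and 0 over the control pools, and Ifit3 had 0 in both.

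With both pools of a plate summed, Rtp4 and Xaf1 passed (1.83% of all genes called) and Irf7 did not (adjusted p = 0.2). Control pools 1 and 2 are those with the Mx1-Cre strain label, and the 2 control plates stood apart: set against control pools 3 and 4 alone, 45.1% of all genes were called. Rtp4 rose by 4.43 there, against 2.96 over all control pools, and Xaf1 rose too, with 0 UMIs in both of those pools. Isg15 stood at -0.08, against 0.59 over all control pools, Irf7 did not pass (0.66 ± 0.31, adjusted p = 0.0839) and Bst2 fell by 0.53 on the log2 scale (adjusted p = 0.0415).

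In SB23 the same contrast, fitted together with the Cebpe pools, gave 5 of 6 tested members higher in Cebpa KO and none lower (background 13.4% called in either direction, 8.03% higher). The filter keeps a gene that is high enough in 1 group of the fit alone. The share of members called can thus be partly set by the filter in every SB23 contrast. Rtp4 had 62.6, 85.4, 53 and 95.2 CPM in KO against 18.7 and 10.3 CPM in control. Xaf1 had 54.3, 77.9, 69.9 and 68 CPM in KO against 5.35 and 6.2 CPM in control. Both genes were separated completely, with log2 changes of 2.35 ± 0.45 for Rtp4 (adjusted p = 0.000173) and 3.47 ± 0.53 for Xaf1 (adjusted p = 6.41e-06).

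Isg15 had 64.7, 47.7, 62.6 and 47.6 CPM in KO against 24.1 and 14.5 CPM in control (log2 change 1.57 ± 0.46, adjusted p = 0.0167). Irf7 had 102, 131, 72.3 and 91.8 CPM in KO against 40.1 and 22.7 CPM in control (1.69 ± 0.37, adjusted p = 0.00116). Bst2 had 104, 158, 207 and 190 CPM in KO against 83 and 97.1 CPM in control (0.85 ± 0.25, adjusted p = 0.0163). Each of these 3 genes was higher in every KO pool than in either control pool, by the smallest margin for Bst2. Ifi27l2a, a small membrane protein of the Ifi27 family, had 10.4, 2.51, 2.41 and 13.6 CPM in KO against 5.35 and 14.5 CPM in control, which overlapped (-0.55 ± 0.78, adjusted p = 0.736). Ifit1 had 10 UMIs in KO and 1 in control.

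The SB23 call rests on 2 control pools. Without control pool 1 there were 3 members called and without control pool 2 there were 2, and Rtp4 and Xaf1 passed in both cases. Grouped by the GEO labels, which go against the targeted genes here, no member passed in edgeR, while 3 had an unadjusted p under 0.05.

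The difference between batches was tested itself, as the KO effect in SB29 minus that in SB23. It was 0.60 ± 0.68 for Rtp4, -1.03 ± 0.90 for Xaf1, -0.96 ± 0.59 for Isg15, -0.72 ± 0.43 for Irf7 and -0.95 ± 0.40 for Bst2 on the log2 scale. None of the 5 passed in edgeR or in DESeq2 (adjusted p between 0.541 and 0.867 in edgeR, against 0.0143% of all genes called), and 1, Bst2, had an unadjusted p under 0.05. A p above the threshold does not show that the effects were the same size.

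**Figure D2:**
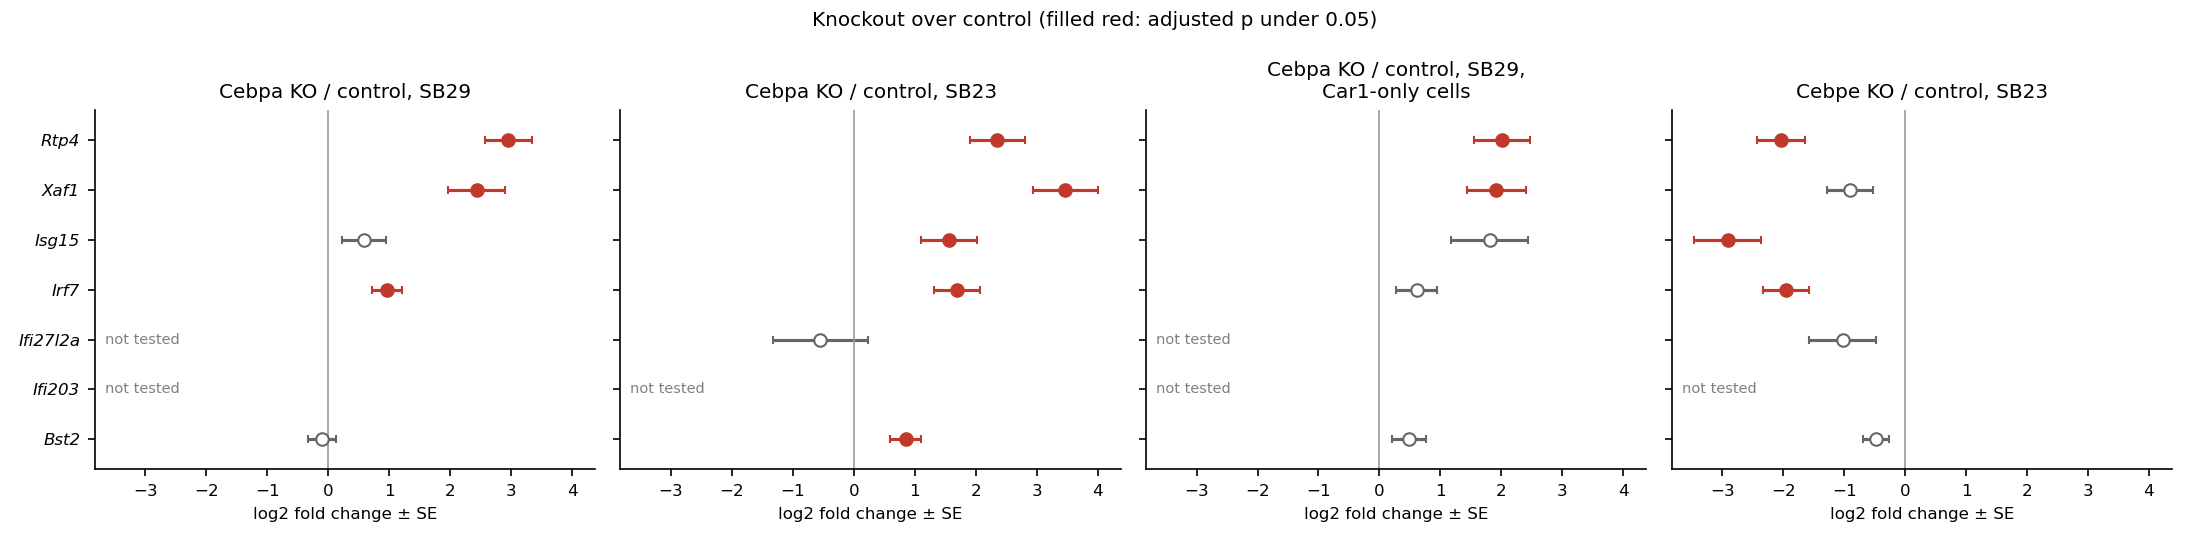
Log2 change of each tested member (point, with its standard error over pools as the bar) for Cebpa KO over Cebpa control in SB29, in SB23 and in the Car1-only cells of SB29, and for Cebpe KO over Cebpe control. Rtp4 lies at 2.96 and 2.35 in the 2 Cebpa contrasts and at -2.04 in the Cebpe contrast.

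The other genes of the pathway were read from lists of 88 genes, 83 of which had a row. These lists were chosen with earlier results of these data known. Their called shares are therefore set beside those of all genes as a description, not as an independent test. In SB29, 16 of 46 tested rose in Cebpa KO and 2 fell (median log2 change 0.56, against 0.02 over all genes). The background was 8.72% of all genes called in either direction and 3.14% higher. Of the antiviral effectors 11 of 17 tested rose and none fell. The 4 largest changes were those of Irf8, a monocyte and dendritic cell factor (-3.98), Ifitm1, a membrane protein that blocks viral entry (3.54), the RNA sensor Ddx58 (1.88) and the GTPase Irgm1 (1.78).

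In SB23 the background was 13.4% of all genes called in either direction and 8.03% higher. There 24 of 63 pathway genes rose and 2 fell (median 0.61, against 0.00 over all genes), with 16 of 26 antiviral effectors higher. Among the largest, the row of Trim30a joined with Trim30 had 41 UMIs in KO against 0 in control, at least 7.39-fold higher at a floor of 3 UMIs over the group, and Ifit2 had 25 against 0, at least 4.51-fold higher. Zbp1, a sensor of nucleic acids, had 51 UMIs in KO against 1 in control, a ratio of 27.6 (95% interval 4.73 to 1110, counting error only), and Parp9 had 53 against 1, a ratio of 28.7 (4.93 to 1153). The values of rows that join several symbols are uncertain for each gene.

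The make-up of the pools moved with these differences. Summed over 6 neutrophil markers, Cebpa KO pools of SB29 held 88.0 to 1221 CPM against 10223 to 18876 CPM in control pools, and in SB23 450 to 769 CPM in KO against 13735 to 16312 CPM in control. Cells with a Car1 UMI, a gene of early erythroid cells, were 90.6% of KO and 69.3% of control cells in SB29. Of the 387 such control cells 238 also held Elane, and cells with Car1 but neither Elane nor Flt3 were 82.1% of KO and 25.8% of control cells. The plasmacytoid dendritic list without Bst2 held 20 to 65.8 CPM in KO pools and 29.7 to 42.6 CPM in control pools of SB29, with Ccr9 at 0 in both groups, Siglech at 1 UMI in each and Ly6d at 17 UMIs (6.47 CPM) in KO and 1 UMI (0.50 CPM) in control. In such sums, fewer cells of a type and less RNA per cell cannot be told apart.

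The contrast was therefore repeated inside cells with a Car1 UMI and no Elane or Flt3 UMI, called Car1-only cells (695 in KO, 144 in control of SB29). Elane encodes neutrophil elastase and Flt3 a receptor of multipotent and dendritic progenitors. Rtp4 had 41.3, 91.7 and 117 CPM in the KO pools (lowest, median, highest) against 26.7 and 16.6 CPM in the 2 control pools with enough such cells, without overlap. Its log2 change was 2.01 ± 0.45 (adjusted p = 0.0145). Xaf1 had 17.7, 70.0 and 115 CPM in KO against 16 and 20.7 CPM in control, which overlapped by 1 control pool (1.92 ± 0.49, adjusted p = 0.0361).

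These 2 of 5 tested members compare with 1.01% of all genes called, and 0.617% called higher. Both passed the filter on low counts through their KO pools only. Irf7 had 67.7, 77.0 and 141.5 CPM in the KO pools against 48 and 58 CPM in control, a change of 0.61 ± 0.33 that did not pass (adjusted p = 0.558). Isg15 stood at 43.8 CPM over all KO cells and 11.8 CPM over all control cells of the class (1.81 ± 0.63, adjusted p = 0.22). Bst2 stood at 153 CPM in KO and 124 CPM in control. Both control pools carry the Mx1-Cre strain label. By edgeR no member was called without control pool 1 (2 at an unadjusted p under 0.05) or without control pool 2 (3 at that p), and 1 was called without KO pool 4 or KO pool 7.

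In SB23, 3 of 5 tested members rose in the Car1-only cells of Cebpa KO (317 cells, against 109 in control, background 5.44%, 4.6% higher), an alternative chosen after the data were seen. Rtp4 had 58.9, 88.5, 98.4 and 105 CPM in KO against 24.1 and 12.5 CPM in control (2.25 ± 0.61, adjusted p = 0.0179). Xaf1 had 60 UMIs in KO against 0 in control, at least 5.97-fold higher at a floor of 3 UMIs over the group. Irf7 had 111.5, 152, 98.4 and 89.1 CPM in KO against 40.2 and 25.1 CPM in control (1.86 ± 0.48, adjusted p = 0.0121). All 3 were higher in every KO pool than in either control pool, and all 3 passed the filter through KO pools.

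Unsorted progenitors of the same class lay between KO and control for Rtp4 and Xaf1. Car1-only cells of unsorted progenitors (673 cells) held 50.1 CPM of Rtp4, against 87.2 CPM in Cebpa KO and 19.6 CPM in Cebpa control of SB29. Xaf1 stood at 72.5 CPM in Cebpa KO, 15.7 CPM in Cebpa control and 30.7 CPM in unsorted cells. Irf7 stood at 82.5 CPM in Cebpa KO, 58.9 CPM in Cebpa control and 88.0 CPM in unsorted cells. These 3 groups come from different batches, so the levels are given without a test.

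**Figure D3:**
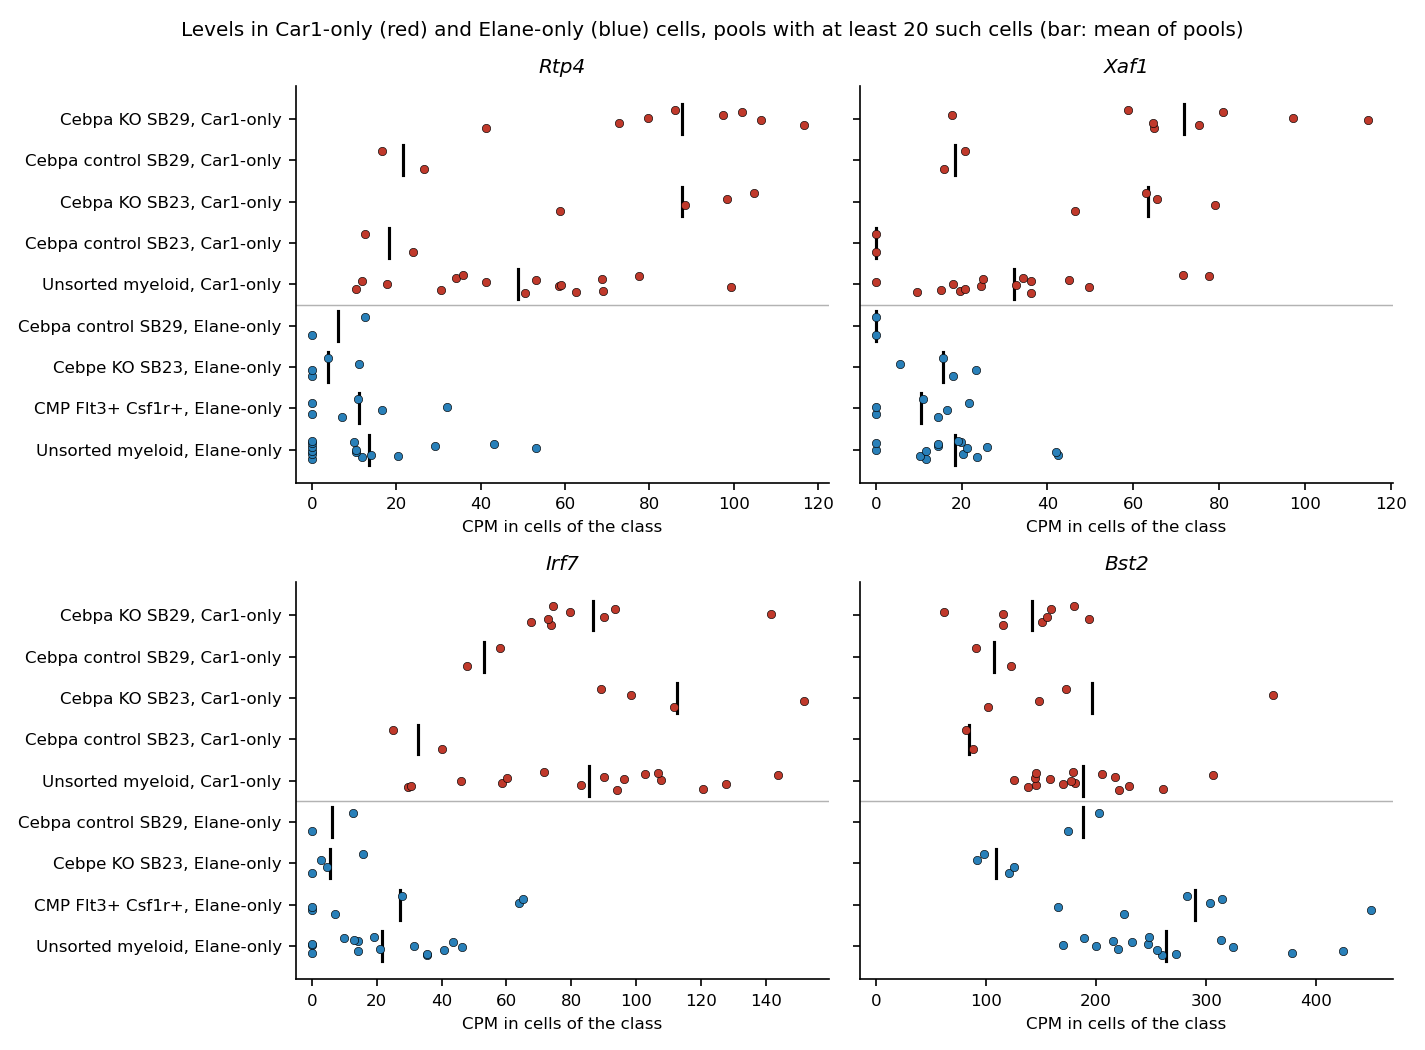
CPM of Rtp4, Xaf1, Irf7 and Bst2 per pool in Car1-only and in Elane-only cells, by group; each point is 1 pool with at least 20 cells of the class. In Car1-only cells Rtp4 lies at 41.3 to 117 CPM in the Cebpa KO pools of SB29, at 26.7 and 16.6 CPM in their controls and at 10.4 to 99.2 CPM in unsorted pools.

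The next comparisons set groups whose genotype labels give poly(I:C) against groups whose labels give none, with the pools that carry another label kept as the well table has them. Within SB23, the mean of both Cebpa groups over that of both Cebpe groups showed 2 of 6 tested members higher and none lower (background 31.8% in either direction, 13.6% higher), a share close to the background for either direction. Isg15 rose by 1.52 ± 0.38 (adjusted p = 0.00177) and Irf7 by 0.89 ± 0.28 (adjusted p = 0.0127) on the log2 scale. Rtp4 (0.33), Xaf1 (-0.58), Ifi27l2a (-1.12) and Bst2 (-0.24) did not pass. The contrast averages 2 knockouts whose own effects have opposite signs, so the controls were also compared alone. With the plate as the unit, an alternative chosen after the data were seen, edgeR called no member between all Cebpa and all Cebpe plates (1 at an unadjusted p under 0.05), and 1 was called without Cebpa control pool 1 or Cebpe control pool 1.

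Cebpa control against Cebpe control of SB23 gave 3 of 6 members lower and none higher (background 11.1% in either direction, 8.84% lower), a share that can be partly set by the filter. Rtp4 had 18.7 and 10.3 CPM in Cebpa control against 52.1 and 53 CPM in Cebpe control (-1.87 ± 0.49, adjusted p = 0.00932). Xaf1 had 5.35 and 6.2 CPM against 38.6 and 44.4 CPM in Cebpe control (-2.77 ± 0.60, adjusted p = 0.00118). Bst2 had 83 and 97.1 CPM against 155 and 188 CPM in Cebpe control (-0.90 ± 0.27, adjusted p = 0.023). In each of the 3 genes both Cebpa control pools lay below both Cebpe control pools.

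Isg15 (24.1 and 14.5 CPM against 25.2 and 37.6 CPM in Cebpe control), Irf7 (40.1 and 22.7 against 50.4 and 68.4) and Ifi27l2a (5.35 and 14.5 against 21.8 and 32.5) stood lower too and did not pass. Adjusted p-values of these 3 genes lay between 0.161 and 0.44. Among the other pathway genes 13 of 63 fell and none rose (background 11.1% in either direction, 8.84% lower). Trim30a with Trim30 had 0 UMIs against 41, at least 9.93-fold lower, and Ifit2 had 0 against 32, at least 7.75-fold lower. Parp9 had 1 UMI against 55 (40.0 times lower, interval 6.88 to 1607) and Usp18, which dampens interferon signalling, had 3 against 33 (7.99 times lower, 2.51 to 40.7).

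Only 1 member was called without Cebpa control pool 2. Between the Car1-only cells of these controls (109 and 38 cells) no member of 5 was called by edgeR or had an unadjusted p under 0.05 (background 2.49%). Only 1 Cebpe control pool, with 22 such cells, could enter, and it is assumed to vary like the other groups of the fit. Rtp4 stood at 17.6 CPM in Cebpa control and 47.2 CPM in Cebpe control there, and Xaf1 at 0 and 37.8 CPM. All 6 neutrophil markers together held 14858 CPM in Cebpa control and 14772 CPM in Cebpe control. Other lists differed, with monocyte markers at 527 CPM in Cebpa control and 1442 CPM in Cebpe control. Megakaryocyte markers stood at 148 and 647 CPM, and lymphoid or NK markers at 121 and 391 CPM. In the lymphoid or NK list Cd3e, Cd79a, Il7r and Prf1 had 0 UMIs in both controls, and Gzmb had 0 in Cebpe control. Its sums rest on the few remaining genes and do not show such cells. The part of these lists in the member differences was not tested.

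Against unsorted progenitors, Cebpa control of SB29 had 1 of 7 members lower and none higher (background 24.8% in either direction, 9.9% lower). Rtp4 had 15.9, 13.7, 0 and 6.6 CPM in control against 16.9, 32.3 and 47.5 CPM in unsorted pools (lowest, median and highest of 16). The highest control pool lay below the lowest unsorted pool (-1.47 ± 0.41, adjusted p = 0.00695). Xaf1 (-0.91, adjusted p = 0.12), Ifi203 (-1.11, adjusted p = 0.161) and Bst2 (-0.37, adjusted p = 0.116) did not pass, and 2 members were called without control pool 2, 3 or 4. Of the other pathway genes 2 of 66 rose and 18 fell, among them Trim30a with Trim30 (0 UMIs against 87 in unsorted, at least 5.93-fold lower), Usp18 (-1.96), Parp12 (-1.41) and Ifitm3 (-1.17). Batch, genotype and treatment cannot be told apart in this comparison.

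Cebpe KO was compared with Cebpe control in SB23. The labels of both genotypes give no treatment, but by the labels of single pools the injection falls on 2 of the 4 KO pools and on both control pools. These single-pool labels equal the table's entry for the next plate, which is a Cebpa group in each case. Of 6 tested members 3 fell and none rose (background 20.8% in either direction, 10.1% lower). This share too can be partly set by the filter on low counts. Rtp4 had 4.54, 13.9, 15.5 and 12.7 CPM in KO against 52.1 and 53 CPM in control (-2.04 ± 0.39, adjusted p = 0.000173). Isg15 had 2.27, 9.25, 3.1 and 1.59 CPM in KO against 25.2 and 37.6 CPM in control (-2.91 ± 0.55, adjusted p = 0.000118). Irf7 had 4.54, 23.1, 12.4 and 17.5 CPM in KO against 50.4 and 68.4 CPM in control (-1.95 ± 0.38, adjusted p = 0.000178).

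Every KO pool lay below both control pools in these 3 genes. Xaf1 had 31.8, 25.4, 13.9 and 15.9 CPM in KO against 38.6 and 44.4 CPM in control, also without overlap, but its change of -0.91 ± 0.38 did not pass (adjusted p = 0.0841). Bst2 had 104, 132, 112 and 119 CPM in KO against 155 and 188 CPM in control (-0.48, adjusted p = 0.111). Ifi27l2a had 9.09, 18.5, 15.5 and 7.95 CPM in KO against 21.8 and 32.5 CPM in control (-1.02, adjusted p = 0.199). Grouped by the GEO labels the directions of Rtp4, Isg15 and Irf7 reverse, as given under the processing alternatives.

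Of the other pathway genes 11 of 63 rose and 7 fell in Cebpe KO (background 20.8% in either direction). The largest changes were those of Usp18 (-3.16), the row of B2m joined with BC002288 (-2.45), Oasl1 (-2.45) and the peptide transporter Tap2 (1.47). Pool make-up moved here as well. Neutrophil markers summed to 47771 to 52910 CPM in KO pools against 14019 to 15513 CPM in control pools, with Cebpe at 0 in KO. Erythroid markers summed to 1165 to 1905 CPM in KO against 4123 to 5150 CPM in control. Car1-positive cells were 41.5% of KO and 85.2% of control cells. Of the 232 in KO 229 also held Elane, and Car1-only cells were 0.537% of KO and 15.2% of control cells. Their part in the lower member levels was not tested. In the 309 Elane-only cells of Cebpe KO, Rtp4 stood at 4.76 CPM, Isg15 at 4.76 CPM and Irf7 at 5.71 CPM, against 13.2, 15.4 and 22.0 CPM in the 510 Elane-only cells of unsorted pools, which come from other batches.

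The sorted gates were each compared with unsorted progenitors. The gates and Cebpa control of SB29 were all compared with the same unsorted pools, so these comparisons share them. The Irf8-GFP+ MHCII+ gate marks dendritic-committed progenitors. In it Ifi27l2a and Ifi203 rose while Rtp4 and Isg15 fell, 4 of 7 tested members against 53.6% of all genes called. A share of that size is close to the background.

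Ifi27l2a had 75.2, 82.5 and 174 CPM in the gate pools (lowest, median, highest) against 2.65, 13.1 and 34.3 CPM in unsorted pools, with no overlap (2.87 ± 0.25, adjusted p = 1.04e-12). Ifi203, of the PYHIN family of DNA-binding proteins, had 15.2, 36.7 and 49.6 CPM in the gate against 6.06, 14.6 and 21.7 CPM in unsorted pools, with some overlap (1.32 ± 0.31, adjusted p = 0.000439). Rtp4 had 1.54, 4.33 and 18.2 CPM in the gate against 16.9, 32.3 and 47.5 CPM in unsorted pools (-2.40 ± 0.36, adjusted p = 5.06e-07). Isg15 had 1.6, 4.57 and 15.4 CPM in the gate against 15.2, 28.6 and 62.8 CPM in unsorted pools (-2.46 ± 0.35, adjusted p = 1.72e-07).

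For Rtp4 and Isg15 the ranges touched only through 1 high gate pool each. Irf7 had 38.6, 44.5 and 65.6 CPM in the gate against 26.9, 66.9 and 90.8 CPM in unsorted pools, and Bst2 had 178, 191 and 215 CPM against 150, 219 and 273 CPM in unsorted pools. These overlapped and did not pass, nor did Xaf1 (-0.23). All 6 gate pools were sequenced in SB25, which holds no unsorted pool, so batch, reporter genotype and gate cannot be told apart.

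The Flt3+ Csf1r+ gate showed Ifi27l2a, Ifi203 and Bst2 higher and Rtp4 and Irf7 lower, 5 of 7 members against 51.1% of all genes. Ifi27l2a had 64.6, 129 and 161 CPM in the gate pools against 2.65, 13.1 and 34.3 CPM in unsorted pools, without overlap (3.29 ± 0.25, adjusted p = 2.74e-14). Bst2 had 199, 306 and 375 CPM in the gate against 150, 219 and 273 CPM in unsorted pools (0.58 ± 0.13, adjusted p = 0.000342). Irf7 had 7.36, 30.9 and 37.7 CPM in the gate against 26.9, 66.9 and 90.8 CPM in unsorted pools (-1.03 ± 0.23, adjusted p = 0.000333).

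Irf7 and Bst2 thus overlapped between the groups at 1 edge of their ranges. Rtp4 had 1.84, 17.6 and 24.2 CPM in the gate against 16.9, 32.3 and 47.5 CPM in unsorted pools (-1.18 ± 0.33, adjusted p = 0.00265). Isg15 (27, 30.4 and 35.9 CPM in the gate against 15.2, 28.6 and 62.8 CPM in unsorted pools) lay within the unsorted range and Xaf1 did not pass (-0.32). Ifi203 followed the batch of the gate pools. It had 86.1, 77.2, 94.2 and 59.5 CPM in the 4 gate pools of SB20 and 10.7 and 28.3 CPM in the 2 gate pools of SB25. With the SB20 pools alone its change was 2.63 and with the SB25 pools alone 0.67 ± 0.48, which did not pass (adjusted p = 0.289), against 2.18 ± 0.30 over both.

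Within SB20 5 of 7 members were called (42.3% of all genes) and within SB25 4 of 7 (35.1%). Ifi27l2a changed by 3.28 and 3.37 in these splits, Rtp4 by -0.96 and -1.60, Irf7 by -1.11 and -0.86, and Bst2 by 0.60 and 0.61. Neither batch of the gate holds unsorted pools.

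In the CD41+ gate, which marks megakaryocyte-committed progenitors, Isg15 and Irf7 fell (2 of 7 members, against 37.7% of all genes called, 21.2% lower), a share under the background for either direction. Isg15 had 10.7 and 8.44 CPM in the gate against 15.2, 28.6 and 62.8 CPM in unsorted pools, without overlap (-1.63 ± 0.59, adjusted p = 0.0273). Irf7 had 29.3 and 19.7 CPM in the gate against 26.9, 66.9 and 90.8 CPM in unsorted pools (-1.21 ± 0.42, adjusted p = 0.0194). Only 1 of the 2 gate pools was below all unsorted pools for Irf7. By edgeR no member was called without gate pool 1 (2 at an unadjusted p under 0.05) or without gate pool 2 (0 at that p). Against the 4 unsorted pools of the same batch, SB17, Isg15 passed (-1.79 ± 0.63, adjusted p = 0.033, 1 of 7 members against 27.6% of all genes) and Irf7 did not (-1.13 ± 0.49, adjusted p = 0.0802).

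**Figure D4:**
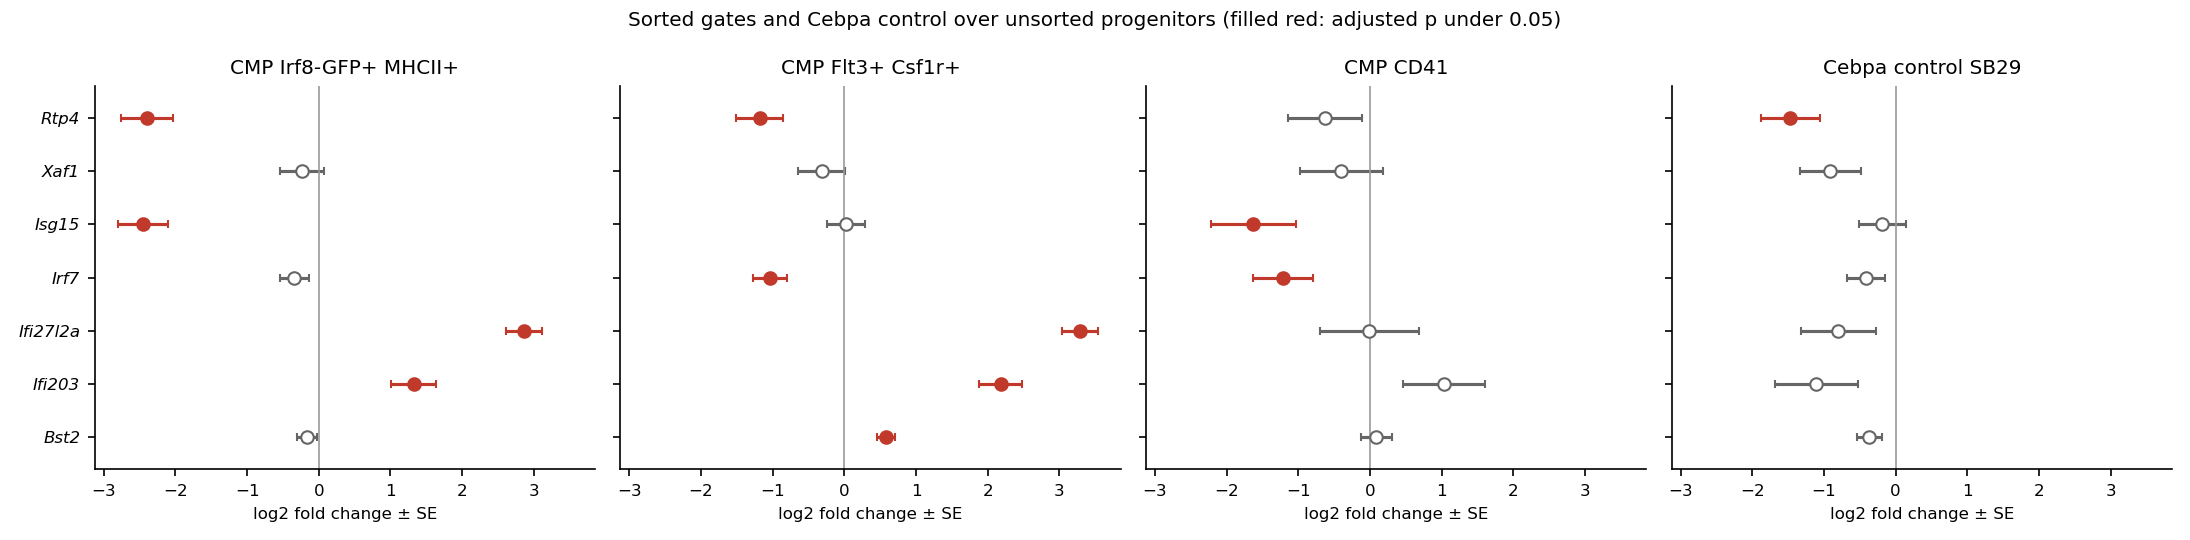
Log2 change of each tested member (point, with its standard error over pools as the bar) in the Irf8-GFP+ MHCII+, Flt3+ Csf1r+ and CD41+ gates and in Cebpa control of SB29, each over the same unsorted pools. Ifi27l2a lies at 2.87 and 3.29 in the first 2 gates, while Rtp4 lies at -2.40 and -1.18.

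The other pathway genes also moved in both directions in the gates. Over all genes the share called in either direction was 53.6%, 51.1% and 37.7% in the 3 gates, in the order given here. In the Irf8-GFP+ MHCII+ gate 36 of 66 rose and 13 fell, led by the DNA sensor gene Ifi205 (4.96), the factor Irf5 (3.65), Oasl1 (-3.43) and the row of Mnda joined with Ifi204 (2.92), with 11 of 14 antigen presentation genes higher. In the Flt3+ Csf1r+ gate 30 rose and 10 fell, led by Irf8 (2.47), Irf5 (1.85), Ddx58 (-1.73) and the B2m row (1.68), with 13 of 14 antigen presentation genes higher. In the CD41+ gate 13 rose and 15 fell. Parp9 had 0 UMIs there against 235 in unsorted pools (at least 5.79-fold lower), Oasl1 1 against 657 (48.6 times lower, interval 8.69 to 1921) and Tmem173 3 against 528 (13.0 times lower, 4.43 to 63.3), and Jak1 changed by -3.32.

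Marker sums describe what the gates hold. Some listed genes encode the sorted proteins, namely Itga2b (CD41) among megakaryocyte markers and Flt3, H2-Aa and H2-Ab1 (MHCII) among dendritic markers. The sums of these lists are thus partly set by the sort, and sums without those genes were not made. Megakaryocyte markers summed to 12267 CPM in the CD41+ gate against 114 CPM in unsorted pools, and dendritic markers to 14159 CPM in the Irf8-GFP+ MHCII+ gate and 518 CPM in the Flt3+ Csf1r+ gate, against 201 CPM in unsorted pools. Neutrophil markers summed to 10218 CPM in the Irf8-GFP+ MHCII+ gate and 20103 CPM in the Flt3+ Csf1r+ gate, where 50.5% of cells held Elane, against 17879 CPM in unsorted pools. Erythroid markers summed to 99.3 CPM in the Irf8-GFP+ MHCII+ gate and 20.8 CPM in the Flt3+ Csf1r+ gate, against 4422 CPM in unsorted pools. The 5 plasmacytoid dendritic markers other than Bst2 summed to 101 to 119 CPM, 107 to 164 CPM and 24.8 to 83.6 CPM in the same order of groups. Siglech, which defines that cell type in the mouse, had 1.12 CPM (4 UMIs) in the Irf8-GFP+ MHCII+ gate, 1.04 CPM (3) in the Flt3+ Csf1r+ gate and 0.20 CPM (2) in unsorted pools. In that order of groups Cd300c had 12.0, 3.46 and 0.40 CPM, Ccr9 3.36, 0.35 and 0 CPM, Ly6d 10.6, 3.12 and 3.24 CPM and Tcf4 85.6, 121 and 50.6 CPM. The part of these markers in the member differences was not tested.

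Within the unsorted pools the members differed between the cell classes defined by single genes. Elane-only cells (510) and Car1-only cells (673) were compared inside pools, with the pool as a block. Bst2, the 1 member that passed the filter on low counts, rose in Elane-only cells, at 261 CPM against 193 CPM in Car1-only cells (0.58 ± 0.12, adjusted p = 3.19e-05, background 53.9%, 26% higher). Without the filter 8 members could be tested and 6 were called (background 25.3% of 12903 genes, against 53.9% of 2299 genes with the filter). The unfiltered background includes genes of low counts, so the share of members called cannot be read as an excess over it. Ifi27l2a rose to 24.2 CPM in Elane-only cells, against 3.79 CPM in Car1-only cells (2.18 ± 0.52, adjusted p = 0.000256), and Ifi203 to 24.2 CPM, against 6.74 CPM (1.58 ± 0.47, adjusted p = 0.00424).

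Rtp4, Isg15 and Irf7 went the other way. Rtp4 fell to 13.2 CPM in Elane-only cells, against 50.1 CPM in Car1-only cells (-1.73 ± 0.34, adjusted p = 5.43e-06). Isg15 fell to 15.4 CPM, against 45.5 CPM (-1.32 ± 0.34, adjusted p = 0.000672). Irf7 fell to 22.0 CPM, against 88.0 CPM (-1.91 ± 0.27, adjusted p = 2.43e-11). Xaf1 stood at 21.3 CPM in Elane-only and 30.7 CPM in Car1-only cells and did not pass (adjusted p = 0.169).

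Flt3-only cells were few in the unsorted pools (28), with 156 CPM of Ifi27l2a (9 UMIs, 95% interval 71.1 to 295) and 104 CPM of Ifi203 (6 UMIs). They could be compared inside the Flt3+ Csf1r+ gate, a comparison added after the data were seen. Ifi27l2a rose in the 333 Flt3-only cells, at 168 CPM against 74.5 CPM in the 259 Elane-only cells (1.19 ± 0.24, adjusted p = 0.00183, 1 of 2 tested members, background 2%, 0.908% higher). It was not called without the pool block, by DESeq2 or when any cell that holds the gene was taken. Bst2 stood at 352 CPM in Flt3-only and 301 CPM in Elane-only cells (0.27 ± 0.16, adjusted p = 0.528). In the Irf8-GFP+ MHCII+ gate, where no test was run, Flt3-only cells (535) held 121 CPM of Ifi27l2a, 30.4 CPM of Ifi203 and 67.0 CPM of Irf7, against 53.0, 22.1 and 22.1 CPM in Elane-only cells (120).

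At the level of single cells, members were compared after each cell was thinned to 1000 UMIs. At that depth 34.3% of Cebpa KO cells of SB29 held a UMI of any member (231 of 674 cells, exact binomial 95% interval 30.7 to 38.0), against 22.9% of control cells (115 of 502). In SB23 the share was 31.4% of Cebpa KO cells (124 of 395) and 15.1% of control cells (42 of 279). Cebpe KO cells held 16.9% (86 of 509), against 30.5% of Cebpe control cells (68 of 223). The remaining shares were 32.6% in the Irf8-GFP+ MHCII+ gate, 39.7% in the Flt3+ Csf1r+ gate, 26.0% in the CD41+ gate and 31.0% in unsorted progenitors. Unthinned shares are given under the processing alternatives.

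Rtp4 was seen in 10.4% of Cebpa KO cells of SB29 (8.19 to 12.9), against 1.20% of control cells (0.44 to 2.58). Cells with UMIs of 2 or more members were 8.01% of KO cells (54 cells) and 1.79% of control cells (9 cells) in SB29, and 5.82% (23) and 1.43% (4) in SB23. Rtp4 and Xaf1 were found together in 8 Cebpa KO cells and in 0 control cells of SB29, and in 8 of 2417 unsorted cells. Taken singly, Rtp4 was seen in 70 and Xaf1 in 48 of the 674 KO cells. Whether the 2 genes met more often than their single shares give was not tested. Thinning left out 173 KO and 56 control cells of SB29. In the 108 wells without a cell, 3 of 6279 UMIs belonged to a member, 1 of Irf7 and 2 of Bst2.

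**Figure D5:**
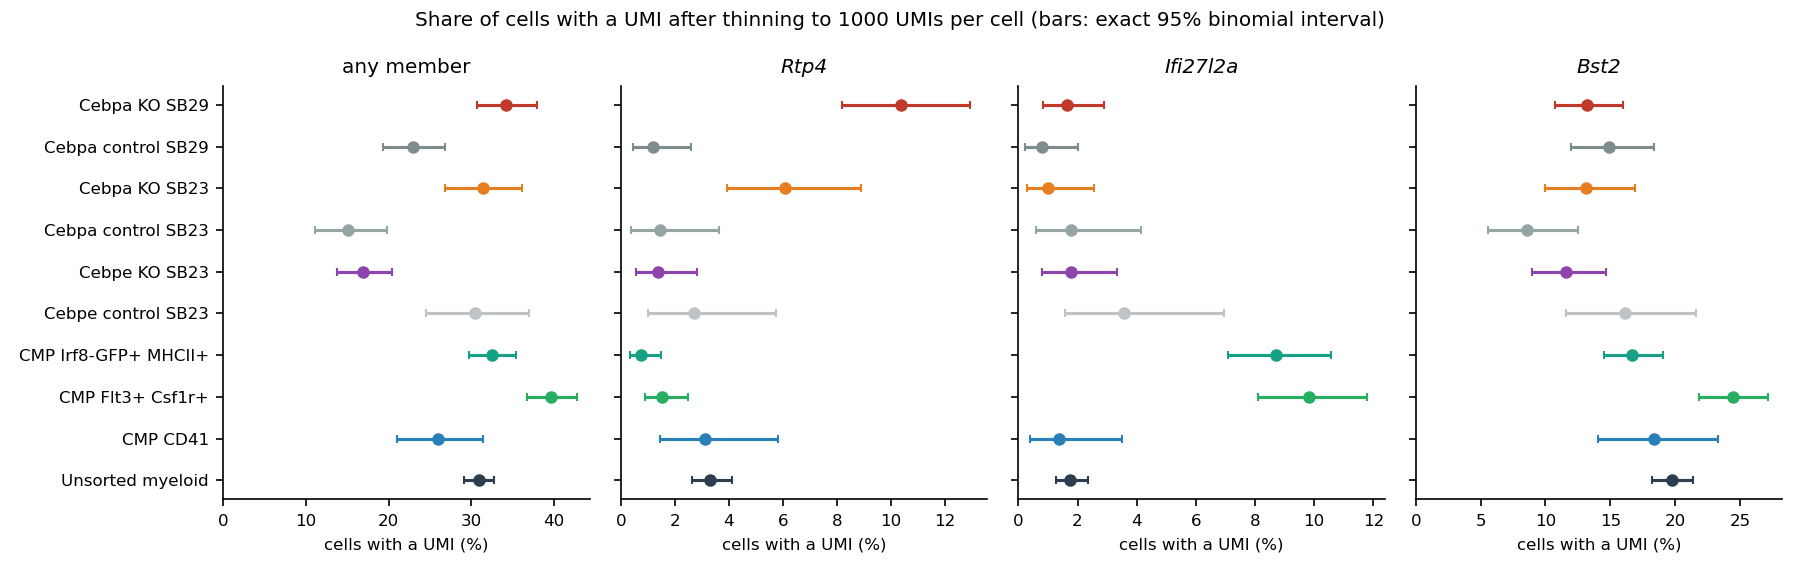
Share of cells (percent) with at least 1 UMI of a member after thinning to 1000 UMIs per cell, by group; bars are exact 95% binomial intervals, which cover counting error only. For any member, Cebpa KO of SB29 lies at 34.3% and its control at 22.9%, and the Flt3+ Csf1r+ gate is highest at 39.7%.

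The members were set against each other over the 54 pools, as a description, since pools share batches and animals. On log2(CPM + 10), Pearson's r was 0.72 between Rtp4 and Xaf1, 0.68 between Rtp4 and Irf7, 0.55 between Rtp4 and Isg15 and 0.53 between Xaf1 and Irf7. It was 0.66 between Ifi27l2a and Ifi203, 0.62 between Ifi203 and Bst2 and 0.49 between Ifi27l2a and Bst2, but -0.41 between Rtp4 and Ifi27l2a. Isg15 had 0.50 with Irf7, 0.24 with Xaf1 and 0.21 with Bst2, and the sparse Ifit1 and Ifit3 reached at most 0.34 and 0.27 with any other member. Of 4035 genes with a mean of at least 50 CPM, the 10 most like the mean standardised level of the members over the 54 pools were Nme4 (r = 0.62), Fam65a joined with Mir1966 (0.62), Ccnd2 joined with CYL2 (0.60), Mta3 (0.60), Lgals3bp (0.60), Zfp362 (0.59), Igtp joined with Irgm2 (0.58), Abhd4 (0.57), Eef1b2 (0.56) and Tns1 (0.56). Of these, Lgals3bp and the Igtp row are on the pathway lists.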

How the data were processed

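MARS-seq UMI counts and a well table were used as deposited. Per the labels' protocols, 3' end libraries were made from sorted cells, and the UMI counts are those of the authors, with no normalization. The tool bcl2fastq 2.15.0.4 and the build mm9 are named, per the submitters' processing notes. Aligner and counter: not given in the sources used here. The surface CD34 and FcgR intensities are the sorter's values in the authors' deposited well table.

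The members and gene lists were chosen with earlier results of these data known. Pools were grouped by the well table. UMIs of cells with at least 500 UMIs were added up within each pool, and edgeR 4.0.16 in R 4.3.3 was run on the sums (quasi-likelihood, TMM scaling, filterByExpr, Benjamini-Hochberg adjusted p under 0.05 over all genes tested). The SB23 comparisons share 1 fit of the Cebpa and Cebpe pools, and the gates and Cebpa control of SB29 share 1 fit with the unsorted pools. Printed CPM have no TMM scaling. Cell classes hold a UMI of 1 of Car1, Elane and Flt3 and none of the other 2, and pools needed 20 such cells. Comparisons inside pools had the pool as a block. All 9 members are named, then the 4 pathway genes with the largest called change and the 10 most alike genes. Intervals are exact (Poisson or binomial, 95%), and these intervals and the floor of 3 UMIs cover counting error only. A fold given as at least sets the observed count against that floor. It leaves out the counting error of the higher count, so it is no lower limit of an interval. In 199 pairs of pools of 1 group, chi-square over its degrees of freedom was at least 1.28, and none was counted as a copy. The fit was tested on simulated data.

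Alternatives were RLE scaling, no filter on low counts, DESeq2 1.42.0, cells with at least 250 or 1000 UMIs, grouping by the GEO label, the plate as the unit, leaving out pools, wider or stricter cell classes, no pool block and other thinning. Within-batch gate comparisons, SB23 comparisons in Car1-only cells, the plate model of all Cebpa against all Cebpe plates and the Flt3-only comparison in the gate were chosen after seeing the data. Scripts used Python 3.11.15, numpy 2.4.6 and scipy 1.17.1. Promoters are of GRCm38.p6, another build than the counts, and no coordinates were converted.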

Additional observations from a re-analysis of the deposited data

Results flagged for a closer look

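Among 54 sets of pool values (9 members in each of the 6 groups of 4 to 10 pools), 9 had a pool whose gap to its nearest neighbour was large against the range of the group. Chance is taken to flag about 1 in 20 sets of varying values. Sets at 0 in every pool, such as Ifit3 in Cebpa KO of both batches, cannot be flagged. The 9 flags therefore cannot be read against that rate. Rtp4 was low in Cebpa KO pool 1 of SB29 (40.54 CPM, 18 UMIs in 14 of 135 cells), with the next pool at 82.5 CPM. Irf7 was high in Cebpa KO pool 5 of SB29 (132 CPM, 16 UMIs in 9 of 40 cells, 5 of them in 1 cell), with the next at 88.2 CPM.

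Ifi203 was high in Cebpa KO pool 8 of SB29 (46.78 CPM, 27 UMIs in 22 of 183 cells, at most 2 in a cell), with the next at 6.92 CPM, and in Cebpe KO pool 2 (25.43 CPM, 11 UMIs in 11 of 145 cells), with the next at 3.18 CPM. In the Irf8-GFP+ MHCII+ gate, Ifi27l2a was high in pool 3 (174.2 CPM, 86 UMIs in 45 of 184 cells). Of those, 18 UMIs were in 1 cell and the next cell held 5. Rtp4 was high in the same pool (18.23 CPM, 9 UMIs in 6 cells, 4 of them in 1 cell), and Isg15 in pool 4 (15.44 CPM, 8 UMIs in 7 cells). In the Flt3+ Csf1r+ gate, Irf7 was low in pool 2 (7.356 CPM, 4 UMIs over 190 cells), and Ifit3 had its 1 UMI in pool 4 (3.498 CPM).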

How the results depend on the processing

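Counts of members called stayed within 1.5 times of the value reported in 190 recomputed counts and left that range in 34. Of the log2 changes of single members, 1066 kept direction and call, 60 lost the call, 5 gained it and 6 reversed, while 28 that were not called changed sign. All 6 reversals came with grouping by the GEO label, which goes against the targeted genes: Cebpe KO over control gave 3.85 for Isg15, 2.26 for Irf7 and 1.60 for Rtp4, Cebpa over Cebpe control gave 1.02 for Xaf1 and 0.12 for Bst2, and Cebpa over Cebpe groups gave -0.17 for Irf7. That grouping called 2 members in the Irf8-GFP+ MHCII+ gate, 2 in the Flt3+ Csf1r+ gate and 0 in the CD41+ gate, the SB23 Cebpa KO, the Cebpa over Cebpe groups or controls, and Cebpa control of SB29 over unsorted pools. The cause was not tested.

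CD41+ pools against SB17 unsorted pools gave 1. In Car1-only cells, DESeq2 and cells with at least 1000 UMIs gave 1 each for SB29, the SB23 Cebpa KO gave 3 with or without the filter, and Cebpa over Cebpe control gave 0 either way. All Cebpa plates against all Cebpe plates gave 0. Elane-only over Car1-only cells gave 6 without the filter and 3 with any cell that holds the gene. Flt3-only over Elane-only cells gave 0 without the pool block, by DESeq2 and with any cell that holds the gene. Without the block, Elane-only over Car1-only cells still gave 1.

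Leaving out 1 pool at a time gave 3 to 3 members in the Cebpa KO of SB29 and in the Cebpe KO, 2 to 5 in the Cebpa KO of SB23, 0 to 0 for the difference between batches, 1 to 3 for Cebpa over Cebpe groups (1 without Cebpa control pool 1 or Cebpe control pool 1) and 1 to 3 for their controls, 1 to 2 for Cebpa control of SB29 over unsorted, 5 to 5, 4 to 4 and 0 to 2 in the Flt3+ Csf1r+, Irf8-GFP+ MHCII+ and CD41+ gates, 0 to 2 in Car1-only cells of SB29 and 1 to 1 for Elane-only over Car1-only cells. DESeq2 did not call Bst2 between the SB23 controls, and gave Isg15 no adjusted p in Car1-only cells of SB29.

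The share of cells with any member depends on depth. Thinned to 500 UMIs it was 22.55% in Cebpa KO and 11.83% in control of SB29, 15.83% and 6.928% in SB23, 10.73% in Cebpe KO and 18.4% in control, and 19.71% in the Irf8-GFP+ MHCII+ gate, 24.12% in the Flt3+ Csf1r+ gate, 13.69% in the CD41+ gate and 17.79% in unsorted cells. Unthinned it was 60.21% in Cebpa KO and 47.85% in control of SB29, 47.11% and 29.82% in SB23, 40.61% in Cebpe KO and 64% in control, and 62.46%, 65.46%, 43.45% and 63.84% in those 3 gates and unsorted cells.

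No paired analysis was possible because the pools of different descriptions share no animal, plate or number. The SB29 and SB23 pools of Cebpa KO share an animal identifier, and so do those of Cebpa control. Flt3-only comparisons in SB29 and in unsorted pools, and the plate as the unit for CD41+ and for single SB23 groups, were not run, since too few cells or 1 plate remained. With 1 animal identifier per group, differences between animals have no replicate check. Ifit1 (64 UMIs in all) and Ifit3 (8) did not pass the filter on low counts in the comparisons between groups of pools reported above. For a count of 0 over Cebpa control of SB29 the exact 95% Poisson interval reaches 1.83 CPM.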

Other observations

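Trim30a, an interferon-induced gene on the pathway list that is counted in a row with Trim30, was distributed by batch and group in another way than the members. It had 0 UMIs in all 12 Cebpa pools of SB29 and in both Cebpa control pools of SB23, but 41 UMIs in the Cebpa KO pools of SB23, which carry the same mouse identifier as the KO pools of SB29. Cebpe KO pools held 57 UMIs, Cebpe control pools 41 and unsorted pools 87.

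The surface proteins recorded at the sort were set beside the members in unsorted progenitors, in cells thinned to 1000 UMIs. Cells with a UMI of any member other than Bst2 (363 cells) had a median FcgR intensity of 108.8 over the 16 pools, against 308 in cells without one (2032 cells), and were lower in 15 of 16 pools. Their median CD34 intensity was 81.5, against 120, and lower in 14 of 16 pools. For Bst2 the FcgR medians were 228.5 with and 208.8 without a UMI, and the CD34 medians 138 with and 88.5 without (lower in 5 of 16 pools). For members other than Bst2, CD34 in Cebpe KO went the other way, at 738.5 with and 442.2 without a UMI (lower in 0 of 4 pools). In Cebpa KO of SB23 it was 91 with and 104 without (lower in 3 of 4 pools). These are descriptions of cells of the same pools, with no test.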
